A study of Mus musculus with 6 samples.

Results

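The 9 genes Rbm20, Rbm24, Mbnl1, Mbnl2, Celf1, Celf2, Rbfox2, Qk and Ptbp1 encode RNA-binding proteins that set splicing in heart and muscle, and they were taken by name from the 35458 genes measured. They were followed in 6 RNA libraries of pooled fetal hearts from wild type FVB/NJ mice, collected on gestational day 15. The pools of the 3 nano-TiO2 libraries came from dams that inhaled an aerosol of engineered titanium dioxide nanoparticles, and those of the 3 sham libraries came from sham-exposed dams of the same strain. The target concentration was 12 mg/m3, for 360 minutes per day on 6 days within 8 days, from gestational day 5 on. The 14 dams of the study were aged 10 weeks, and the labels do not say which litters entered which pool, so p-values measure the spread between pools, which may be partly technical. The libraries are the input RNA of an immunoprecipitation study, total RNA broken into short fragments before a low-input library kit. All 9 genes passed the filter on low counts.

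Splicing regulators of this kind bind short motifs in pre-mRNA near alternative exons and raise or lower the inclusion of those exons, often in a way that depends on whether they sit upstream or downstream. In the developing heart, MBNL proteins promote the adult exon pattern and CELF proteins the fetal one, while RBM20 and RBM24 act on exons of sarcomere and calcium-handling genes. Several of the 9 genes also splice their own transcripts, so their isoforms differ in nuclear localisation or in activity.

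Coding exons of Mbnl1, Mbnl2 and Rbfox2 carry such differences, and their sequences are shown because exon inclusion is compared further on. Mbnl1 and Mbnl2 share an exon of 54 bases that contributes to nuclear localisation of the protein, at chr3:60614683-60614736 and chr14:120395712-120395765 on the plus strand of GRCm38 in GENCODE M21. The 2 paralogous exons were identical at 46 of 54 positions (85.2%), and capitals mark the 8 positions at which they differ.
Mbnl1 exon: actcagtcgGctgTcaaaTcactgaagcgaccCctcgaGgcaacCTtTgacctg
Mbnl2 exon: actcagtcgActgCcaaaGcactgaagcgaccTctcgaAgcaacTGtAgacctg
Rbfox2 has an exon of 43 bases, known from the Rbfox family as the muscle form, and one of 40 bases, known as the form of neurons and other tissues. They lie at chr15:77091812-77091854 and chr15:77094451-77094490 on the minus strand, no annotated coding transcript counted here held both, and the whole exons are in capitals because they share neither a first nor a last base.
Rbfox2 exon of 43 bases: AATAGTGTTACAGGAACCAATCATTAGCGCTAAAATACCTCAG
Rbfox2 exon of 40 bases: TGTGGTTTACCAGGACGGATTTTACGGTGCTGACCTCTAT

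The nano-TiO2 libraries held 12881945 to 21553478 estimated reads (Salmon's assignment of reads to transcripts) and the sham libraries 17152365 to 22720009. The biological coefficient of variation over genes was 23.9%. Cardiomyocyte markers were abundant in every library: the summed level of 8 markers was 27580 to 34910 CPM (scaled reads relative to library size) in nano-TiO2 and 38140 to 42930 CPM in sham libraries. The summed level of 7 erythroid markers was 31510 to 74960 CPM in nano-TiO2 and 98300 to 233600 CPM in sham libraries, and that of 5 smooth muscle markers 1604 to 1844 CPM in nano-TiO2 and 2344 to 2925 CPM in sham libraries. The summed level of 5 endothelial markers ran the other way, at 350 to 376.6 CPM in nano-TiO2 and 315.3 to 337 CPM in sham libraries. Of these 5 markers, 1 was called higher and none lower, and Pecam1, Cdh5 and Emcn overlapped between the groups. Calls were 1 higher and 3 lower for cardiomyocyte, none higher and 5 lower for erythroid, and none higher and 2 lower for smooth muscle markers. Over all genes tested, 15.5% were called higher and 12.8% lower. Tnnt2, Myh6 and Myl7 overlapped between the groups, as did Myh11, Tagln and Cnn1, and most of the smooth muscle sum was Acta2. The 6 hepatocyte markers reached 762.6 CPM in sham library 2 and the 5 lung epithelium markers 1480 CPM in nano-TiO2 library 3, and no listed marker was at 0 in all libraries. The part of these differences in the results on the 9 genes was not tested. In bulk tissue, fewer cells of a type and less RNA per cell cannot be told apart.

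Between nano-TiO2 and sham hearts, 5 of the 9 genes were higher and none was lower at an adjusted p under 0.05 (edgeR's quasi-likelihood test with Benjamini-Hochberg adjustment over 13930 genes). Of all genes tested, 15.5% were called higher and 12.8% lower, so 28.2% changed in either direction. The 5 genes were Mbnl1, Mbnl2, Celf1, Celf2 and Qk, with fold changes of 1.65 to 2.49. The median log2 fold change was 0.72 over the 9 genes and -0.01 over all genes tested. Groups of CPM that did not overlap, with nano-TiO2 above, were found in 23.3% of genes tested and with nano-TiO2 below in 22.4%.

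**Figure D1:**
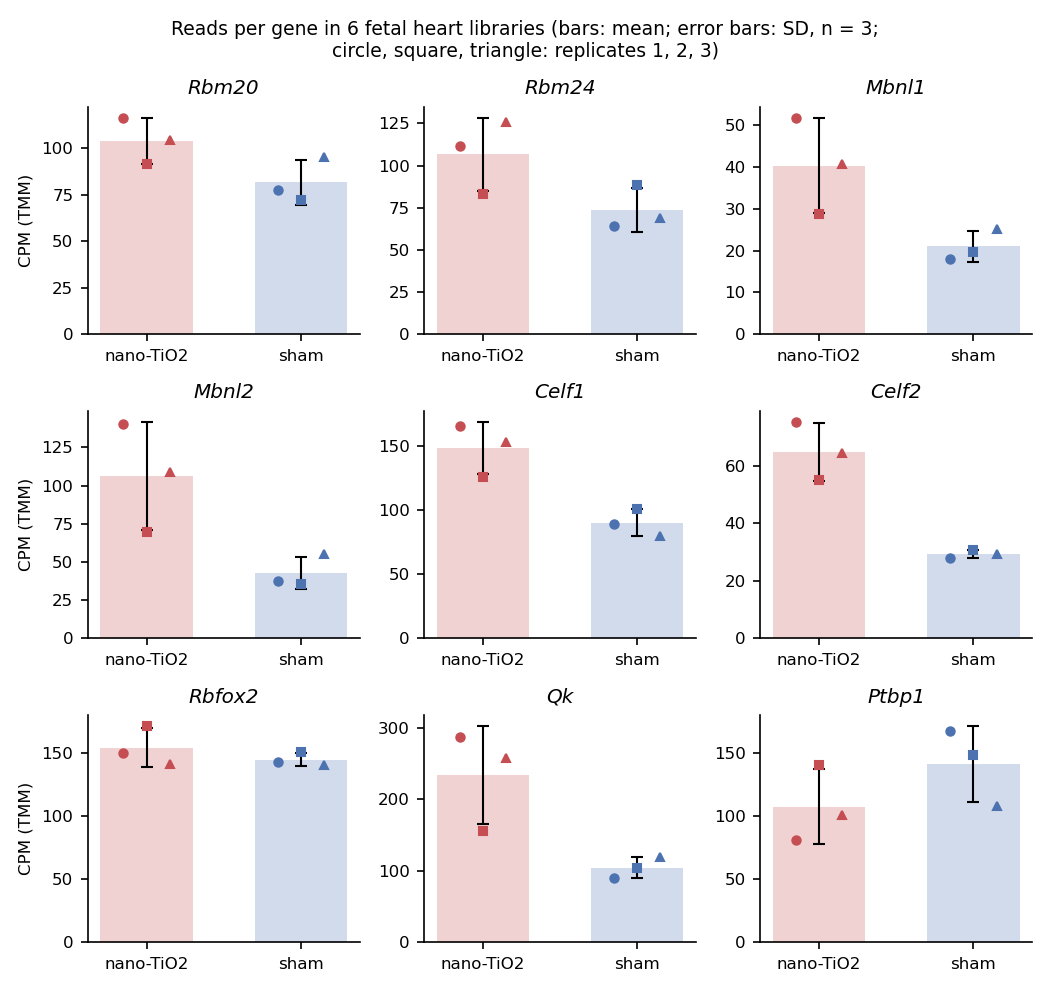
CPM after TMM scaling (vertical axes, from 0) of the 9 genes in nano-TiO2 (left) and sham (right) libraries. Points are libraries, bars are means and error bars SD of 3 libraries; the points of the groups do not overlap for Mbnl1, Mbnl2, Celf1, Celf2 and Qk.

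Neither muscle-restricted regulator passed the test. Rbm20, which represses exons of titin in the heart, had 115.9, 91.3 and 104.4 CPM in nano-TiO2 libraries 1, 2 and 3, against 77.5, 72.3 and 95.2 CPM in sham libraries 1, 2 and 3. Nano-TiO2 library 2 lay below sham library 3, so the groups overlapped. The log2 fold change of 0.35 ± 0.15 (SE, edgeR, adjusted p = 0.116) did not pass the test. Rbm24, which promotes muscle exons during heart development, had 111.4, 83.1 and 125.5 CPM in nano-TiO2 libraries and 63.9, 88.5 and 68.9 CPM in sham libraries. Here too the groups overlapped in 1 library each, nano-TiO2 2 and sham 2. The change of 0.53 ± 0.19 on the log2 scale (SE, edgeR, adjusted p = 0.0639) missed the threshold.

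The muscleblind pair, which drive the adult splicing pattern in muscle, were both higher in nano-TiO2 hearts. Mbnl1 had 51.5, 28.8 and 40.5 CPM in nano-TiO2 libraries and 18.1, 19.7 and 25.2 CPM in sham libraries. The groups did not overlap, though nano-TiO2 2 lay close above sham 3. The log2 fold change was 0.94 ± 0.23 (SE, edgeR, adjusted p = 0.0218). Mbnl2 had 140.4, 69.8 and 108.7 CPM in nano-TiO2 libraries and 37.6, 35.5 and 54.9 CPM in sham libraries. It had the largest change of the 9 genes, 1.31 ± 0.27 on the log2 scale (SE, edgeR, adjusted p = 0.0122), with nano-TiO2 2 again lowest in its group.

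The CELF pair, known as antagonists of MBNL proteins on many exons, were higher as well. Celf1 had 166.3, 126.1 and 153.5 CPM in nano-TiO2 libraries, against 89.5, 101.1 and 80.3 CPM in sham libraries. All nano-TiO2 libraries lay above all sham libraries, by a log2 fold change of 0.72 ± 0.15 (SE, edgeR, adjusted p = 0.0124). Celf2 had 75.2, 55.0 and 64.3 CPM in nano-TiO2 libraries and 28.0, 30.6 and 29.4 CPM in sham libraries. Its sham values were the tightest of the 9 genes in absolute terms, 29.3 ± 1.31 CPM (SD, n = 3), against 64.8 ± 10.1 CPM in nano-TiO2 hearts (SD, n = 3). The log2 fold change was 1.15 ± 0.15 (SE, edgeR, adjusted p = 0.00630), the smallest adjusted p of the 9.

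Rbfox2, which promotes muscle exons that have its motif downstream, had 150.1, 171.9 and 142.0 CPM in nano-TiO2 libraries and 143.1, 151.0 and 140.9 CPM in sham libraries. The groups overlapped, and the change was 0.09 ± 0.12 on the log2 scale (SE, edgeR, adjusted p = 0.590). Qk, which encodes the quaking protein, a regulator of splicing and of circular RNA formation in muscle cells, had 287.3, 156.2 and 258.2 CPM in nano-TiO2 libraries. In sham libraries it had 90.7, 103.4 and 119.9 CPM, all below the nano-TiO2 values. Its log2 fold change was 1.16 ± 0.22 (SE, edgeR, adjusted p = 0.0108). Ptbp1, the polypyrimidine tract-binding protein that represses muscle and neuronal exons in less differentiated cells, had 81.3, 140.0 and 100.8 CPM in nano-TiO2 libraries and 166.9, 148.4 and 107.9 CPM in sham libraries. The groups overlapped, and the change of -0.39 ± 0.23 on the log2 scale (SE, edgeR, adjusted p = 0.221) did not pass the test. With single libraries left out it ran from -0.63, without nano-TiO2 library 2, to -0.19, without sham library 1.

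Levels per transcript length, in TPM (Salmon's length-corrected share of the library), gave an order among the genes. In nano-TiO2 hearts Rbfox2 was highest at 76.6 ± 12.1 TPM, followed by Rbm24 at 58.6 ± 0.307, Ptbp1 at 52.9 ± 20.8, Mbnl2 at 47.0 ± 11.5, Qk at 40.5 ± 6.24, Celf1 at 39.2 ± 5.80, Rbm20 at 30.9 ± 3.01, Celf2 at 20.4 ± 2.67 and Mbnl1 at 11.6 ± 3.01 TPM (SD, n = 3). In sham hearts Rbfox2 was highest at 44.9 ± 6.28 TPM, followed by Ptbp1 at 42.1 ± 11.6, Rbm24 at 25.8 ± 1.69, Rbm20 at 17.0 ± 4.46, Celf1 at 15.0 ± 1.46, Qk at 12.3 ± 3.22, Mbnl2 at 12.3 ± 3.85, Celf2 at 6.35 ± 0.949 and Mbnl1 at 4.36 ± 1.51 TPM (SD, n = 3). In nano-TiO2 hearts the library values of Ptbp1 overlapped those of Rbfox2 and Rbm24 and of Mbnl2, and those of Mbnl2, Qk and Celf1 overlapped each other, while the remaining neighbours did not overlap. In sham hearts the neighbours that overlapped were Rbfox2 with Ptbp1, Rbm20 with Celf1, Celf1 with Qk, Qk with Mbnl2, and Celf2 with Mbnl1. On this scale Rbm24 had 58.3, 58.7 and 58.9 TPM in nano-TiO2 libraries and 23.8, 26.4 and 27.1 TPM in sham libraries, without overlap. TPM and library totals shifted genes as a whole: the median log2 change over all genes was 0.47 on log2(TPM + 1) and 0.41 with library totals only. With limma on log2(TPM + 1), 8 of the 9 genes were called higher, where 38.0% of all genes tested were called higher and 0.134% lower. Relative to the median gene, the log2 change on log2(TPM + 1) was 0.68 for Rbm24, 0.38 for Rbm20, 0.28 for Rbfox2 and -0.19 for Ptbp1.

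The table of reads in bins along each gene gave a second count of the same libraries. Summed per gene, 6 of the 9 genes were higher and none lower, where 15.4% of 18850 genes were higher and 11.2% lower, 26.6% in all (edgeR). The additional gene was Rbm24, with 84.4, 64.3 and 96.8 CPM in nano-TiO2 and 47.3, 64.5 and 51.7 CPM in sham libraries and a log2 fold change of 0.59 ± 0.18 (SE, edgeR, adjusted p = 0.0396). Nano-TiO2 library 2 lay just under sham library 2. The fold changes of all 9 genes lay above those from the Salmon reads by less than 0.1 on the log2 scale.

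Composition moved with these calls. The 5 genes called higher had transcripts of 40.9 to 46.8% GC, and the other 4 had 49.2 to 54.7%, where the median over genes tested was 50.9%. By length the 5 lay at 2698 to 6680 bases and the other 4 at 2480 to 4142 bases, where the median over genes tested was 2381 bases. After the trend of each library over transcript length and GC was removed, edgeR called none of the 9 genes, where it called 2.76% of all genes, 208 higher and 177 lower. An unadjusted p under 0.05 was found for 4 of the 9 and for 22.1% of all genes. DESeq2 called 2 of the 9, where it called 10.5% of the genes it gave an adjusted p. The log2 fold changes then were 0.81 ± 0.18 for Mbnl2 (SE, edgeR, adjusted p = 0.0510), 0.50 ± 0.13 for Celf2 (adjusted p = 0.0648), 0.49 ± 0.20 for Rbm24 (adjusted p = 0.194) and 0.38 ± 0.13 for Mbnl1 (adjusted p = 0.145). Qk kept 0.24 ± 0.14, Celf1 was at -0.00 ± 0.14 and Rbfox2 at -0.19 ± 0.12. The fold changes of Rbm24 were thus close with and without the trend, and those of Qk and Celf1 differed by more than 0.7. The source of the trend was not tested.

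**Figure D2:**
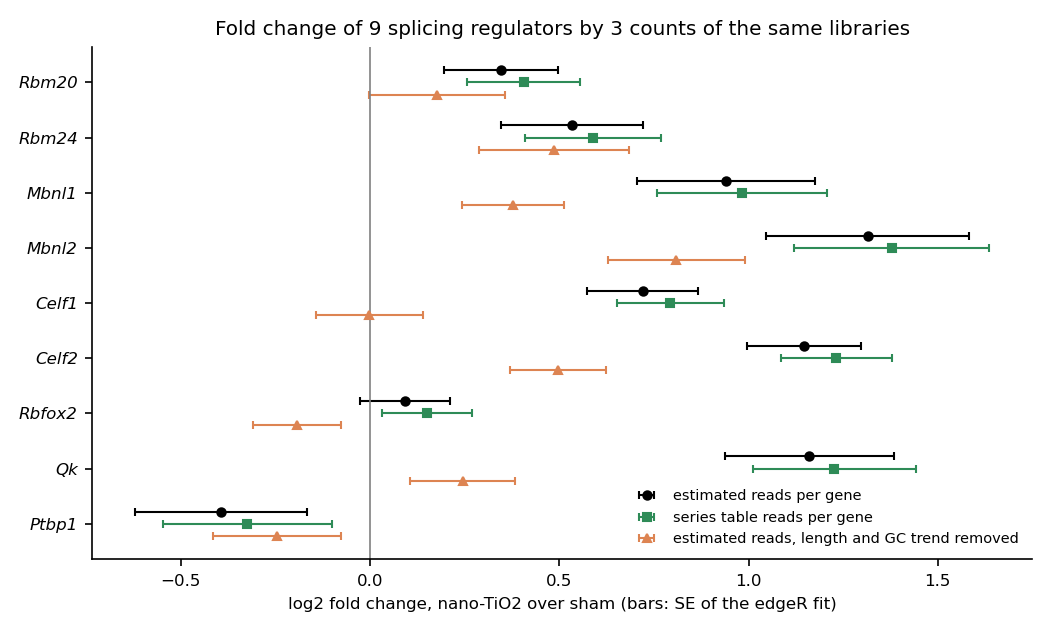
Log2 fold change of nano-TiO2 over sham (horizontal axis; bars are SE of the edgeR fit) for the 9 genes. Black circles are estimated reads, green squares reads of the bin table and orange triangles estimated reads after removal of the length and GC trend; Celf1 and Qk are near 0.72 and 1.16 without and near 0 and 0.24 with the removal.

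Leaving out single libraries left 3 to 6 of the 9 genes called. Without nano-TiO2 library 1, 3 genes were called, since Mbnl1 and Celf1 missed the threshold. Mbnl1 also missed it without nano-TiO2 library 3, sham library 1 or sham library 2. Rbm24 passed without nano-TiO2 library 2, and Rbm20 without sham library 3. Without sham library 2 and nano-TiO2 library 3 together, which were richest in liver and lung transcripts, edgeR and limma-voom called none of the 9 genes and none of all 14021 genes tested (0% each). In edgeR an unadjusted p under 0.05 was found for 6 of the 9 and for 23.9% of all genes. DESeq2 called 4 of the 9, where it called 9.71% of the genes it gave an adjusted p.

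The isoform question is whether the transcripts of a gene kept their proportions. Of 122 annotated transcripts of the 9 genes, 90 had reads, 52 passed the filter and 31 held at least 5% of the reads of their gene on average. At the transcript level 1 of the 52 was called, where 2.02% of 30409 transcripts were called (0.921% higher and 1.10% lower), and in the test of shares within a gene 1 of the 52 was called, where 0.335% of 24450 were called (0.200% with a higher and 0.135% with a lower share). Both calls were Celf1-203. The fit does not contain the error of assigning reads to transcripts, which was not analysed here.

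Celf1-203, a coding transcript of 7614 bases with a long 3' UTR, held 14.1, 11.7 and 19.7% of Celf1 reads in nano-TiO2 libraries and was listed at 0 in all 3 sham libraries. The adjusted p was 0.0475 for its level and 0.000959 for its share (edgeR). On simulated data the share test made false calls more often than its threshold allows. No fold is given against libraries listed at 0. The transcripts of Celf1 are near copies of each other, and the 5 coding transcripts over 7000 bases together held 20.3, 24.1 and 23.7% of Celf1 reads in nano-TiO2 libraries and 20.2, 14.6 and 11.9% in sham libraries. Reads in the stretch of 3' UTR that Celf1-203 has and the main transcript Celf1-206 lacks were present in every sham library: 289, 211 and 403 reads were counted there in nano-TiO2 libraries and 202, 104 and 111 in sham libraries. Relative to coding reads this was 0.439, 0.5 and 0.737 in nano-TiO2 libraries and 0.493, 0.428 and 0.318 in sham libraries. The groups overlapped on this ratio (exact two-sided permutation test, p = 0.2, where 0.1 is the smallest p that 3 against 3 allows). Celf1-203 was listed at 0 in sham libraries that had 104 to 202 reads in that stretch. The stretch was chosen only as absent from Celf1-206, so its reads may belong to other long transcripts. Celf1-214, of 7806 bases, was assigned 29.6, 150.1 and 0 reads in nano-TiO2 and 98.5, 197.3 and 78.7 in sham libraries. Reads in the stretch therefore cannot decide whether Celf1-203 was absent from sham hearts.

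For the other 8 genes no share passed the test, and none had an unadjusted p under 0.05 there. Rbm20-201, annotated as a target of nonsense-mediated decay, held 64.7, 60.7 and 72.3% of Rbm20 reads in nano-TiO2 libraries and 57.0, 63.1 and 54.2% in sham libraries. Reads in the stretch of 3' UTR that Rbm20-201 has and the coding Rbm20-203 lacks, relative to coding reads, were 0.971, 0.877 and 1.42 in nano-TiO2 libraries and 0.730, 0.980 and 0.667 in sham libraries (exact two-sided permutation test, p = 0.3). In the stretch both share the ratios were 0.335, 0.352 and 0.392 in nano-TiO2 libraries and 0.299, 0.309 and 0.303 in sham libraries. These did not overlap, at the smallest p the design allows (exact two-sided permutation test, p = 0.1). All other stretches compared in this way, in Celf1, Rbm20, Qk and Mbnl2, overlapped (exact two-sided permutation test, p = 0.2 to 0.8). How often such stretches do not overlap over all genes was not counted. Rbm24 was read almost wholly as Rbm24-201, 97.0 ± 0.938% in nano-TiO2 and 97.2 ± 0.670% in sham hearts (SD, n = 3).

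Mbnl1 reads were split unevenly within groups. Mbnl1-201 held 6.53, 46.0 and 19.4% in nano-TiO2 libraries and 25.6, 32.6 and 19.4% in sham libraries, and Mbnl1-214 held 38.8, 10.9 and 34.5% in nano-TiO2 libraries and 19.4, 0 and 21.3% in sham libraries. The lowest and highest nano-TiO2 shares of both transcripts lay further apart than the group means. Of Mbnl2, the coding Mbnl2-204 held 51.6 ± 7.25% in nano-TiO2 and 52.8 ± 0.851% in sham hearts, and Mbnl2-205, annotated without a coding sequence, held 25.1 ± 6.91% in nano-TiO2 and 28.2 ± 9.55% in sham hearts (SD, n = 3).

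Celf2-206 held 48.8 ± 7.86% of Celf2 reads in nano-TiO2 and 41.9 ± 13.3% in sham hearts. Rbfox2-203 held 64.4 ± 2.75% of Rbfox2 reads in nano-TiO2 and 64.1 ± 0.891% in sham hearts. Qk-204, the longest Qk transcript at 8547 bases, held 68.9 ± 3.33% in nano-TiO2 and 66.9 ± 7.82% in sham hearts, although the gene as a whole differed 2.23-fold. Ptbp1-216 held 50.4 ± 11.4% in nano-TiO2 and 51.7 ± 9.86% in sham hearts (SD, n = 3).

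**Figure D3:**
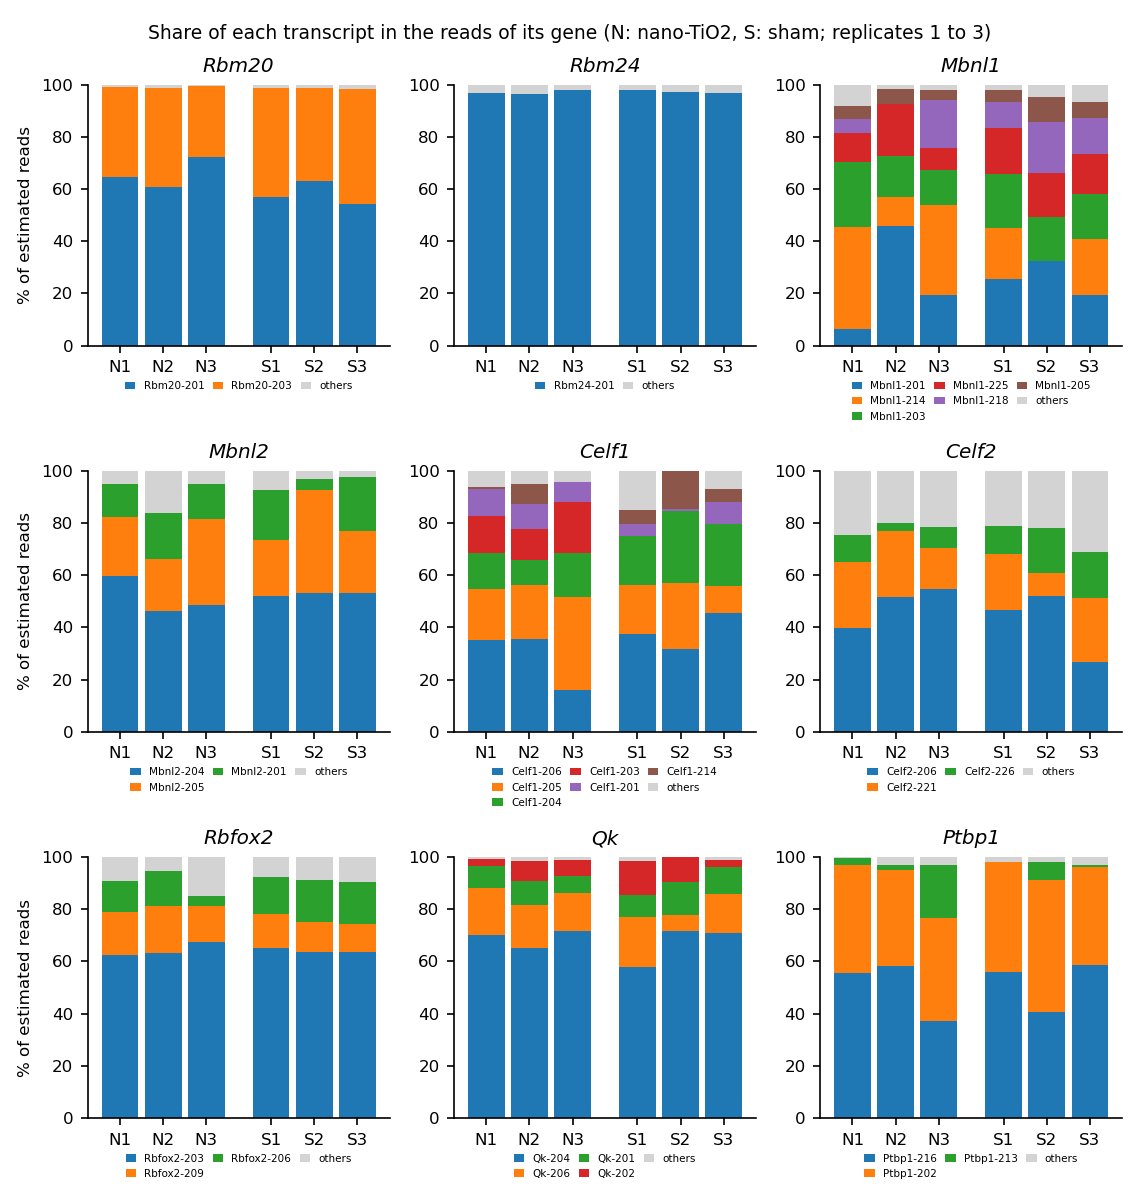
Share of each transcript in the estimated reads of its gene (vertical axes, percent), for nano-TiO2 libraries N1 to N3 (left) and sham libraries S1 to S3 (right). Transcripts with a mean share of at least 5% are coloured and the rest grey; Celf1-203 (red) is present in N1 to N3 and listed at 0 in S1 to S3, while Rbm24-201 fills about 97% of every bar.

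Coding cassette exons were compared by the share of TPM in transcripts that hold the exon, among coding transcripts that hold or skip it. Of 2284 such exons of up to 150 bases in all genes, 10 lie in the regulators: 4 in Rbfox2, 3 in Mbnl1 and 1 each in Mbnl2, Celf2 and Ptbp1. None of the 10 was called, and none of all 2284, by limma on the arcsine root of inclusion (0% called). At an unadjusted p under 0.05 there were 132 of 2284 and none of the 10. Inclusion did not overlap between groups for 2 of the 10 exons, and for 10.9% of all such exons.

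Both non-overlapping exons were the Rbfox2 pair printed above. The 43-base exon was in 33.6, 32.3 and 30.8% of transcripts in nano-TiO2 libraries and in 37.4, 39.4 and 39.2% in sham libraries. The 40-base exon was in 60.4, 64.9 and 60.1% in nano-TiO2 libraries and in 57.6, 52.9 and 53.2% in sham libraries. The 2 values are not independent, since most transcripts hold one exon or the other. The differences were -6.40 and 7.24 percentage points, with adjusted p of 0.862 for each by limma, and with the smallest p of the exact two-sided permutation test, p = 0.1, for each. Length moved with the exons: transcripts with the 40-base exon averaged 4175 bases and those without it 1561 bases, weighted by TPM, and its part in the difference was not tested. Rbfox2 level was not called at the gene level.

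The Mbnl1 54-base exon was in 49.9, 14.8 and 59.7% of transcripts in nano-TiO2 libraries and in 36.5, 26.5 and 46.1% in sham libraries. Its 36-base exon was in 50.1, 85.2 and 40.3% in nano-TiO2 and 63.5, 73.5 and 53.9% in sham libraries. The pair added up to 100% in every library because each compared transcript with reads is annotated with either exon but not both. That sum is set by the annotation and is no observation of splicing. The spread within nano-TiO2 libraries covered that of the sham libraries for both exons. Over all its coding bins Mbnl1 had only 52, 26 and 47 reads in nano-TiO2 and 34, 7 and 28 in sham libraries. Few reads could fall on these exons, so their percentages rest largely on Salmon's assignment of other reads to transcripts. The comparison with Mbnl2 below has the same limit. The Mbnl2 54-base exon was in 11.02 ± 2.29% of transcripts in nano-TiO2 and 12.05 ± 7.26% in sham hearts (SD, n = 3), lower than in Mbnl1 in 6 of 6 libraries.

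The Ptbp1 exon of 78 bases, which lies between RNA-binding domains and whose skipping is known to weaken repression, was in 53.5, 56.1 and 43.3% of transcripts in nano-TiO2 and 52.3, 39.9 and 55.6% in sham libraries. The Rbfox2 exon of 93 bases, in the RNA-binding domain, was in 85.2 ± 7.96% of transcripts in nano-TiO2 and 89.6 ± 1.99% in sham hearts (SD, n = 3). The Celf2 exon of 144 bases was in 82.2, 91.5 and 83.8% in nano-TiO2 libraries and 86.7, 72.3 and 70.3% in sham libraries. All of these groups overlapped.

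**Figure D4:**
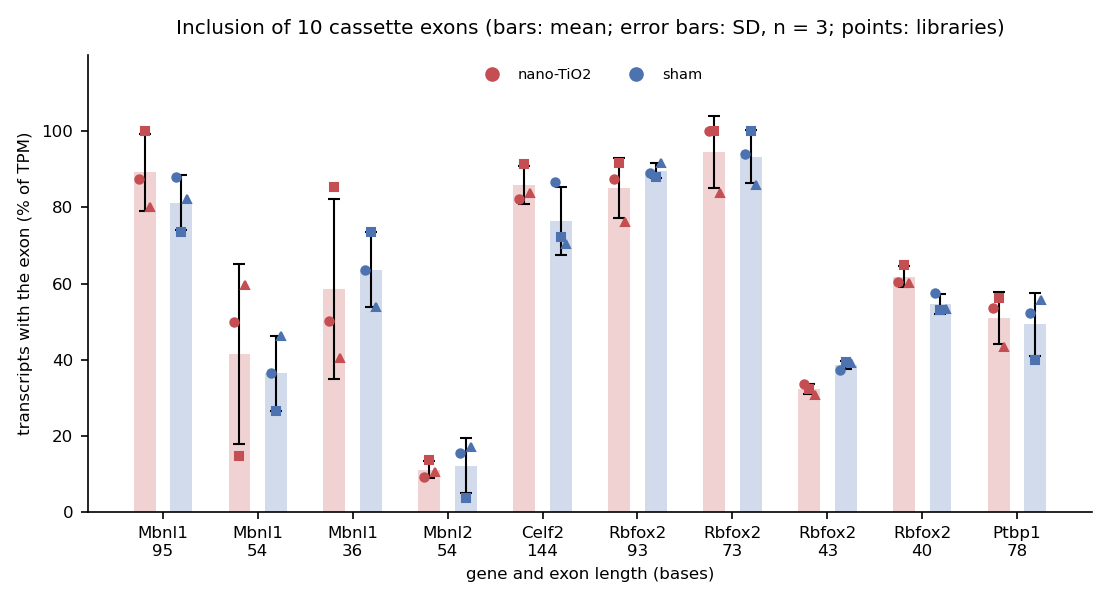
Share of TPM in transcripts that hold each of 10 coding cassette exons (vertical axis, percent), by gene and exon length in bases (horizontal axis), nano-TiO2 left of sham. Bars are means, error bars SD of 3 libraries and points libraries; groups do not overlap for the Rbfox2 exons of 43 and 40 bases, and the Mbnl1 exons of 54 and 36 bases spread widest among nano-TiO2 libraries.

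Reads were also compared bin by bin along the genes. In bins of 25 bases with a mean of at least 10 scaled reads, 26 of 519 tested bins of the 9 genes were higher in nano-TiO2 libraries and none lower, where 1.14% of 245114 bins were higher and 4.48% lower, 5.62% in all (limma on log2(value + 1)). The 26 bins were 16 in Qk, 9 in Mbnl2 and 1 in Celf1. The log2 change was above 0 in 92 of 92 tested Qk bins, 44 of 44 Mbnl2 bins, 85 of 87 Celf1 bins and 34 of 34 Rbm20 bins. It was above 0 in 69 of 72 Rbm24 bins, 62 of 94 Rbfox2 bins and 9 of 94 Ptbp1 bins. Mbnl1 and Celf2 had only 1 tested bin each, above 0 in both genes. The filter took the mean over both groups, so bins low in sham libraries could enter through their nano-TiO2 values. In longer windows along Mbnl2 the highest sham mean was 7.86, where the nano-TiO2 mean was 20.4. Along Celf2 the highest sham mean was 3.14, where the nano-TiO2 mean was 9.25. The counts above 0 may therefore be partly set by the filter, and its part was not tested. The median log2 change was 0.52 over the 519 bins and -0.25 over all 245114 bins. The share above 0 over all bins was not counted. Neighbouring bins can share reads, so bins of 1 gene are not independent. The count was 0 without nano-TiO2 library 1, nano-TiO2 library 3, sham library 1 or sham library 2, where the bins called over all genes were 0, 63, 86 and 7 in that order, against 13777 with all libraries. Without nano-TiO2 library 2 it was 39, of 14174 called over all genes.

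**Figure D5:**
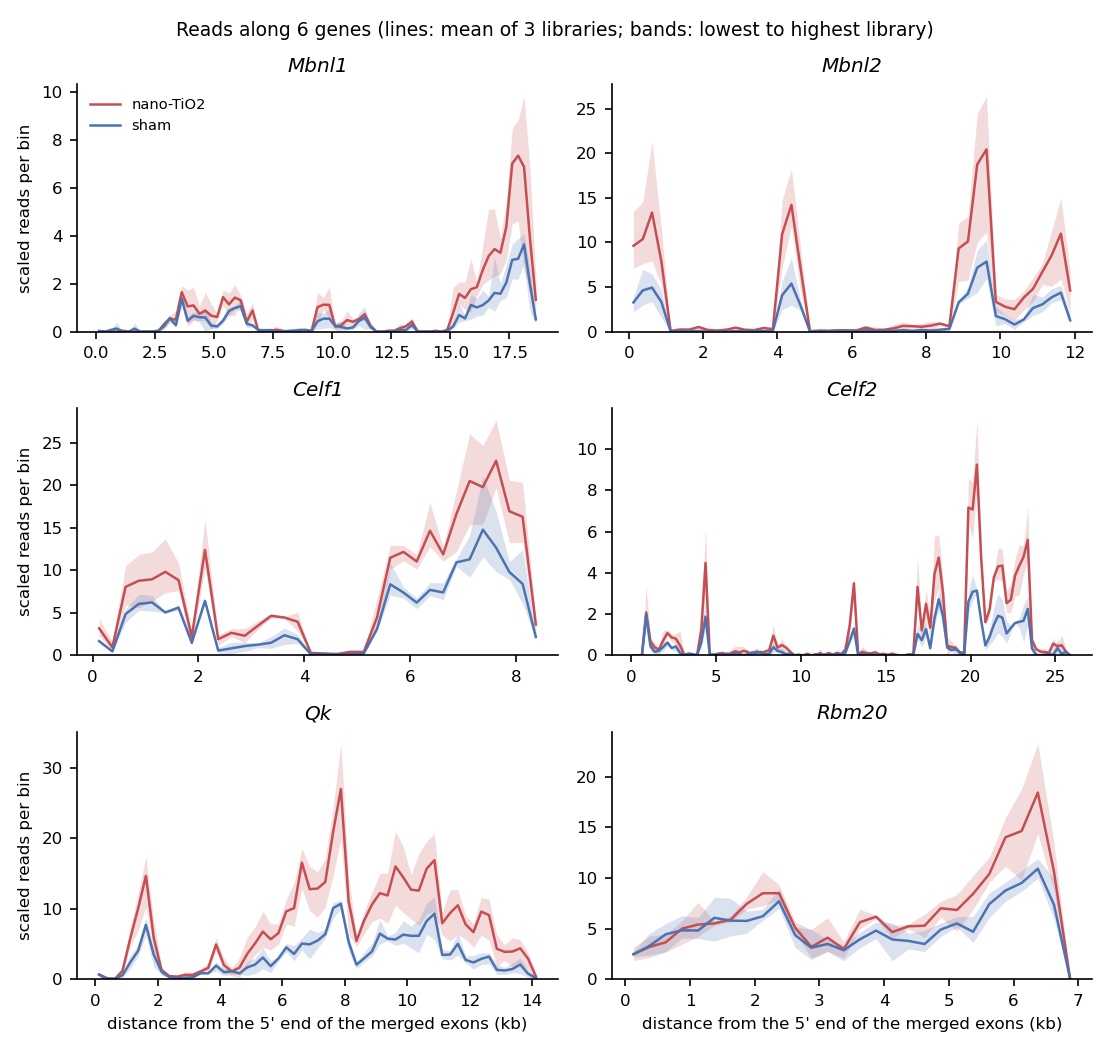
Scaled reads per bin (vertical axes) in windows of 250 bases along the merged exons of 6 genes, from the 5' to the 3' end (horizontal axes, kb). Lines are means of 3 nano-TiO2 (red) or 3 sham (blue) libraries and bands run from the lowest to the highest library; the nano-TiO2 line lies above the sham line along most of Mbnl2, Celf1, Celf2 and Qk.

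The balance of 3' UTR and coding reads was compared next, with limma on the log2 ratio of the 2 read counts per gene. None of the 9 genes was called, where 0.556% of 8454 genes were called (0.509% with a higher and 0.0473% with a lower ratio). Over all genes the median log2 change of the ratio was 0.08, and the change was above 0 in 68.9% of genes. Rbm20 had ratios of 1.31, 1.23 and 1.81 in nano-TiO2 libraries and 1.03, 1.29 and 0.971 in sham libraries, a log2 change of 0.39 ± 0.17 (SE, limma, unadjusted p = 0.0471, adjusted p = 0.544). Without nano-TiO2 library 3 the change was 0.22. Rbm20 was 1 of the 9 with an unadjusted p under 0.05, beside 8.98% of all genes. Celf2 had 3.98, 5.68 and 5.90 in nano-TiO2 and 3.17, 4.90 and 3.00 in sham libraries, a log2 change of 0.51 ± 0.23 (SE, limma, adjusted p = 0.561). Qk had 7.11, 7.43 and 8.74 in nano-TiO2 and 7.30, 6.77 and 6.76 in sham libraries. Mbnl2 had 1.73, 1.59 and 2.35 in nano-TiO2 and 1.73, 2.58 and 1.95 in sham libraries, and these groups overlapped too.

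Other genes of the same pathway were read from 3 lists. Of 10 family relatives, 6 had enough reads to test. Calls were made for 2 as higher and for 1 as lower, beside 15.5% and 12.8% of all genes, with a median log2 fold change of 0.69. Ptbp3, a paralogue of Ptbp1, was at 27.3 ± 5.01 CPM in nano-TiO2 and 14.7 ± 1.48 CPM in sham hearts (SD, n = 3), a log2 fold change of 0.89 (edgeR, adjusted p = 0.0128). Celf4 was also higher, at 2.49 ± 0.401 CPM in nano-TiO2 and 1.15 ± 0.247 CPM in sham hearts (SD, n = 3; edgeR, adjusted p = 0.0403). Rbm38, the closest relative of Rbm24, was lower, at 213.6 ± 3.00 CPM in nano-TiO2 and 346.9 ± 35.1 CPM in sham hearts (SD, n = 3; edgeR, adjusted p = 0.00846). Rbfox1, the fourth by p, averaged 2.88 ± 0.763 CPM in nano-TiO2 and 1.45 ± 0.704 CPM in sham hearts (SD, n = 3; edgeR, adjusted p = 0.112). None of the 6 was called once the trend over length and GC was taken out.

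Of 38 known splicing targets of these regulators in heart or muscle, 18 were higher, 3 lower and 17 did not pass, beside 15.5% of all genes higher and 12.8% lower, and the median log2 fold change was 0.52. The smallest p-values were those of Dst (dystonin, a cytoskeletal linker) with a log2 fold change of 1.62, Insr (insulin receptor) with 1.49, Enah (an actin regulator) with 0.96 and Cacna1c (a cardiac calcium channel) with 0.94. These are levels, not splicing. Of the targets, 24 genes had 152 cassette exons, of which limma called none, 1 had an unadjusted p under 0.05 and 7.24% did not overlap between groups. The exon with the smallest p was one of 144 bases in Myocd, a coactivator of smooth muscle and cardiac genes, in 90.8, 84.6 and 92.3% of transcripts in nano-TiO2 libraries and in 100% in each sham library (limma, adjusted p = 0.249). Only Myocd-202 skips this exon, and it was listed at 0 in the sham libraries, an assignment that was not checked in the reads. The Camk2d exon of 60 bases, in a gene spliced by RBM20, was in 31.9, 43.4 and 28.6% in nano-TiO2 libraries and 18.6, 8.88 and 28.7% in sham libraries (limma, adjusted p = 0.769). Nano-TiO2 library 3 lay just under sham library 3.

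Of 47 hnRNP and other splicing regulators, 18 were higher, 2 lower and 27 did not pass, beside the same 15.5% and 12.8% of all genes, and the median log2 fold change was 0.38. The smallest p-values were those of Tia1 with a log2 fold change of 1.06, Rbm25 with 0.96, Tial1 with 0.81 and Hnrnpll with 1.25. With the trend removed, 2 of 38 targets and 2 of 47 regulators were called, beside 2.76% of all genes. The 3 list medians then were 0.09 for relatives, 0.22 for targets and 0.24 for the other regulators, and 0.24 for the 9 genes themselves. The median over all genes tested was then 0.01.

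The gene whose centred log2 CPM over the 6 libraries came closest to each regulator was named among 10210 coding genes. It was Chd6 for Celf2 at a root mean square distance of 0.0271, 1810030O07Rik for Rbm20 at 0.0325, Ddx21 for Celf1 at 0.0409, BC017158 for Ptbp1 at 0.0410 and Dbr1 for Rbfox2 at 0.0440. It was Tmpo for Rbm24 at 0.0457, Ccser2 for Mbnl1 at 0.0549, Zfp106 for Mbnl2 at 0.0582 and Cep350 for Qk at 0.0609. With 6 libraries such likeness is a description of these libraries only.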

How the data were processed

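RNA was measured in 6 input libraries, 3 nano-TiO2 and 3 sham, grouped and numbered by their titles. Estimated counts per transcript and TPM were deposited as Salmon writes them, per the file headers. A second deposited table gives a signal per bin: multiplied by 1 size factor per library, 100% of the values were whole numbers to within 0.001. Named in the submitters' processing notes, with no role, are Salmon 1.5.2, HISAT2 2.2.1, GRCm39 and DESeq2 1.34.0. The program that counted the bins, and any strand setting, is not given in the sources used. Transcripts were matched by ID to GENCODE M21 (GRCm38): 115685 of 116747 matched and 1062 were left out. Exon sequences and their coordinates are those of GENCODE M21, and no coordinate of the files is given. The bins matched the merged exons of that annotation in 98.1% of 47897 genes compared.

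Estimated counts were summed per gene, rounded and tested with edgeR 4.0.16 (robust quasi-likelihood, TMM, filterByExpr, group as the only term, threshold 0.05 after Benjamini-Hochberg adjustment over all features). The same fit was made per transcript, with diffSpliceDGE for shares. Bins with a mean of at least 10 were tested with limma 3.58.1 on log2(value + 1), and TPM on log2(TPM + 1). Ratios of 3' UTR to coding reads (at least 20 reads on average in each) and cassette exons (5 to 95% mean inclusion, at least 1 TPM in each library) were added after seeing the data, as were the stretches of 3' UTR. The length and GC trend of each library was removed with generalised additive models (mgcv 1.9.3) as offsets. DESeq2 1.42.0 and limma-voom were alternatives. R 4.3.3 was used. The edgeR fits per gene, with and without trend removal, and per transcript were tried on simulated data. So were the share test and limma on bins, 3' UTR ratios and cassette exons. False calls exceeded the threshold most clearly for shares. DESeq2, limma-voom, limma on TPM and the exact tests were not tried on simulated data.

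The 9 genes and the lists were chosen with earlier results of these data known. Of each list up to 4 genes with the smallest p are named, and transcripts with a mean share of at least 5% or past a test, of which only some are given with values. The Camk2d and Myocd exons were chosen after their values were seen. The exact tests of 3 against 3 cannot give p under 0.1. The titles give replicate numbers and state no pairing of the samples. Depth per library is in the text. The fewest reads of the 9 genes were the 263 of Mbnl1 in sham library 2.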

Additional observations from a re-analysis of the deposited data

How the results depend on the processing

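Mbnl2, Celf2 and Qk kept their direction under all 23 alternatives to the gene fit and lost the call under 3 of them, and Mbnl1 kept its direction and lost the call under 8. The number of the 9 genes called was 8 with library totals only, 8 with limma on log2(TPM + 1) and 8 on log2(TPM + 0.1), 0 with the length and GC trend removed, without or with the replicate block, 0 without sham 2 and nano-TiO2 3, and 3 to 6 with single libraries left out; it was 5 with the replicate block alone. The median gene moved by 0.56 on log2(TPM + 0.1). Directions turned for Ptbp1, at 0.0399 with library totals only and 0.29 on both log2(TPM) scales, for Celf1, at -0.0018 with the trend removed, and for Rbfox2, at -0.19 with the trend removed and -0.20 with the replicate block added. Of the lists, relatives gave 5 calls with library totals only, 0 with the trend removed and 1 to 3 with single libraries left out. Targets gave 2 with the trend removed, 13 with the replicate block and 9 to 22 with single libraries left out, and the other regulators 2 with the trend removed and 4 to 22 with single libraries left out. Member transcripts called were 7 with library totals only (1903 of all transcripts) and 11 with DESeq2 (4673 of all), and 0 with the trend removed, with the replicate block or with any 1 library left out, where 0 of all transcripts were called; the share call of Celf1-203 was lost (0) only with the replicate block. Bins called were 5 with a mean of at least 20, 15 with TMM factors and 0 to 39 with single libraries left out. With single libraries left out, the log2 change of the 3' UTR ratio ran from -0.31 to 0.46 for Mbnl1, -0.30 to 0.0231 for Mbnl2, -0.16 to 0.29 for Celf1, -0.0429 to 0.0833 for Rbfox2 and -0.12 to 0.23 for Ptbp1. Inclusion changes ran from -2.99 to 5.56 percentage points for the Ptbp1 exon of 78 bases, -5.20 to 1.41 for the Mbnl2 exon, -4.06 to 18.4 and -18.4 to 4.06 for the Mbnl1 exons of 54 and 36 bases, and -2.47 to 6.65 for the Rbfox2 exon of 73 bases. The causes of these changes were not tested. Same-numbered libraries correlated at -0.39, 0.02 and -0.08 in their deviations, and differently numbered ones at -0.415 to 0.48. With 3 libraries per group these values cannot decide whether the numbers pair the samples. The titles state no pairing, so the replicate block fits describe a shared number only.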
